A study of Homo sapiens with 15 samples.

Results

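BAQ12O was compared with Lys05 in MIA PaCa-2, an established line from a human pancreatic carcinoma, whose mRNA was sequenced in 3 libraries per agent. These 6 libraries, chosen by the agent named in their labels, were taken from a series of 15 libraries in 5 groups of 3 that also holds vehicle (Ctrl), BAQ12 and BAQ13. All 15 libraries came from the same line, for which the labels give no genotype or transgene, and the series' design text gives a dose of 5 µM for each of the 4 agents and a treatment time of 24 h. The design text writes the agent as 12O, the sample labels write BAQ12O, and the study's text describes the agent under neither name, so that its structure and its formulation are not stated here. Of 60107 genes listed in each library, 10495 passed a filter on low reads and were compared. The libraries are labelled as replicates 1 to 3 of each agent and nothing in the labels says that they came from separate cultures, so that the p-values measure the spread between these libraries, which may be technical.

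Lys05 is a bisaminoquinoline, a dimer of the antimalarial chloroquine scaffold, that collects in acidic lysosomes, raises their pH and blocks autophagy. Lysosomes break down macromolecules and set free the cholesterol of lipoproteins. When the sterol content of the endoplasmic reticulum falls, transcription factors of the SREBP family switch on the genes of cholesterol and fatty acid synthesis. Mitochondria carry their own circular genome, both strands of which are transcribed as long precursors that are cut into rRNAs, tRNAs and mRNAs of the respiratory chain. By convention, 12 of the mRNAs lie on the transcript named after the heavy strand, and MT-ND6 and several tRNAs lie on the opposite one.

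The BAQ12O libraries held 1960763, 2203652 and 1586566 reads on genes in replicates 1 to 3, and the Lys05 libraries held 1948633, 1998260 and 2230594. Between 14815 and 15718 genes had at least 1 read in a BAQ12O library and between 15102 and 15476 in a Lys05 library. The chi-square per degree of freedom between the read counts of replicate pairs, which is 1 for pure sampling noise, was 1.11 to 1.70 for BAQ12O and 1.11 to 1.31 for Lys05. It was 13.6 and 11.4 for the pairs that hold replicate 3 of BAQ12, and 3.41 and 6.23 for those that hold replicate 1 of BAQ13. Those 2 libraries stood apart from their own groups and entered the shared estimate of the spread. Markers of epithelium were only partly present. The keratins KRT8, KRT18 and KRT19 had 145 to 885 reads in the 6 libraries, whereas EPCAM and CDH1, the defining adhesion molecules of epithelium, had at most 2 reads. Of the mesenchymal markers, the filament gene VIM had 7769 to 10948 reads, CDH2 had 0 and FN1 had at most 1. Markers of endothelium, acinar cells and T or B cells had 0 reads, and the remaining markers of leukocytes, fibroblasts and islets had at most 6.

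With BAQ12O, the 12 heavy-strand mitochondrial mRNAs were higher than with Lys05, though lower than with vehicle. Also higher than with Lys05 were a few genes of sterol and fatty acid synthesis, the autophagy receptor SQSTM1 and several long non-coding RNAs. In the fit of all 15 libraries (limma on log2 of the normalised reads plus 1, adjusted over the 10495 genes), 26 genes passed an adjusted p of 0.05, which is 0.248% of the genes tested. Of these, 23 were higher with BAQ12O (0.219%) and 3 were lower (0.0286%). Some of these calls were fragile. In 6 refits that each left out 1 of the 6 libraries, SQSTM1 passed in 0, and EBP, MALAT1 and NDRG4 passed in 1 each. In all 26, the 3 BAQ12O libraries did not overlap the 3 Lys05 libraries. Over all genes tested, the BAQ12O libraries lay entirely above in 9.16% and entirely below in 9.19%. The 26 were called on these same libraries, so that their separation follows largely from the call and adds no further evidence. The count and its direction depended on the libraries that set the spread. With only the 9 libraries of vehicle, Lys05 and BAQ12O, 267 genes passed, 132 higher (1.26%) and 135 lower (1.29%), and these included all 26. At a fold of 2 or more and an unadjusted p of at most 0.05, 63 genes (0.6%) differed, 50 higher and 13 lower. The values of a library are relative to its other genes, so that a change in the RNA content per cell or in the number of cells cannot be seen in them.

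**Figure D1:**
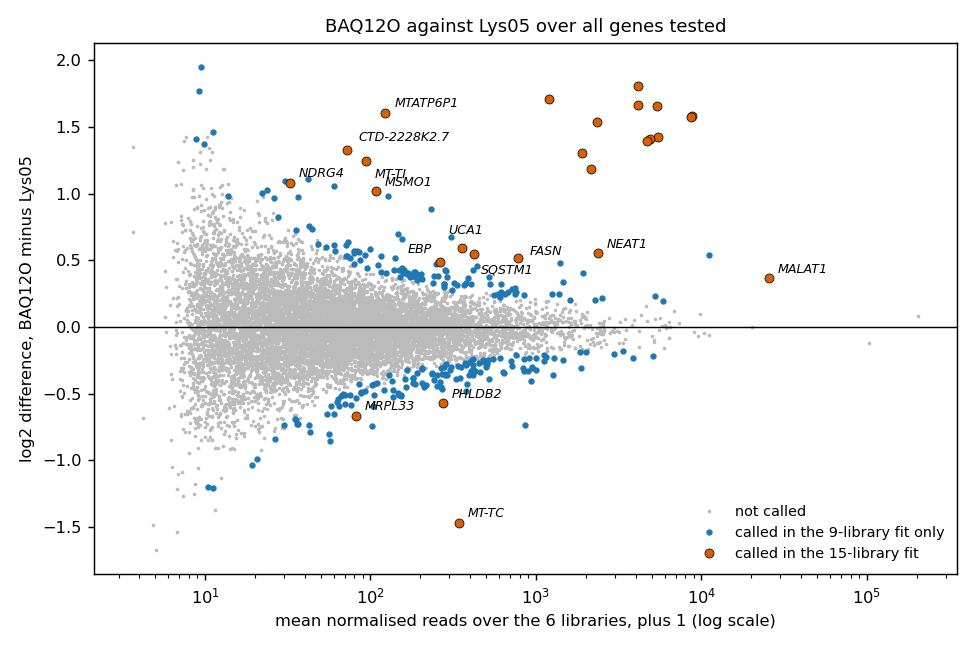
Each point is 1 of the 10495 genes tested, with the mean normalised reads over the 6 libraries plus 1 on the x axis (log scale) and the log2 difference BAQ12O minus Lys05 on the y axis. Orange points are the 26 genes called in the 15-library fit, and the unlabelled ones at the top right are the 12 mitochondrial heavy-strand mRNAs. Blue points are the further genes called in the 9-library fit, which lie on both sides of 0.

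Set against vehicle, the 26 genes fell into different positions. In 14 of them the BAQ12O mean lay between the vehicle and Lys05 means: the 12 heavy-strand mRNAs, the nuclear copy MTATP6P1 and the tRNA gene MT-TC. In 10 of them BAQ12O lay farther from vehicle than Lys05 on the same side: MSMO1, EBP, FASN, SQSTM1, NEAT1, MALAT1, UCA1, CTD-2228K2.7, NDRG4 and PHLDB2. In the other 2, MT-TI and MRPL33, the 2 agents lay on opposite sides of vehicle. Both comparisons with vehicle use the same 3 vehicle libraries. The positions are read from the estimated differences alone and were not tested, and some of these differences are small. Lys05 minus vehicle was 0.11 for MSMO1, 0.13 for MALAT1 and 0.19 for SQSTM1 on the log2 scale (adjusted p = 0.9994 for each, limma). BAQ12O minus vehicle was 0.22 for MT-TI (adjusted p = 0.71, limma). For the 12 heavy-strand mRNAs, Lys05 did pass as lower than vehicle.

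All 12 heavy-strand mRNAs were higher with BAQ12O, and all 12 passed in the 15-library fit. Their log2 differences ran from 1.18 to 1.80 with a median of 1.56, or 2.27-fold to 3.49-fold, against a median log2 difference of -0.0075 over all genes tested. Together the 12 took 3.67%, 3.60% and 3.96% of the reads in the BAQ12O libraries, 1.28%, 1.33% and 1.36% in the Lys05 libraries and 5.91% to 6.07% in the vehicle libraries. The 3 groups did not overlap. BAQ12 libraries had 1.66% to 2.07% and BAQ13 libraries had 2.17% to 2.38%, values given here without a test.

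Among the subunits of complex I, the NADH dehydrogenase that feeds electrons into the chain, MT-ND2 had 6377, 6203 and 6738 normalised reads with BAQ12O and 1744, 1875 and 1909 with Lys05. The vehicle libraries had 9324, 9403 and 9099.5. Every BAQ12O library was thus well above every Lys05 library and below every vehicle library, and the log2 difference from Lys05 was 1.80 ± 0.11 (SE, adjusted p = 1.3e-08, limma). MT-ND1 had 3398, 3321 and 3704 with BAQ12O against 1218, 1149.7 and 1216 with Lys05, a log2 difference of 1.54 ± 0.077 (SE, adjusted p = 2.1e-09, limma). MT-ND3 had 5875, 5857 and 7175 against 1969, 2041 and 1921. The 6 complex I mRNAs of the heavy strand (MT-ND1 to MT-ND5 and MT-ND4L) had log2 differences of 1.43 to 1.80. In each of these genes the lowest BAQ12O library was above the highest Lys05 library.

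MT-CYB, the cytochrome b of complex III, had 6279, 6186 and 7901 normalised reads with BAQ12O and 2398, 2658 and 2644.5 with Lys05, a log2 difference of 1.40 ± 0.11 (SE, adjusted p = 4.7e-07, limma). The complex IV mRNAs, which encode the catalytic core of cytochrome c oxidase, were, with MT-CYB, the 4 smallest differences of the 12. MT-CO1 had 2609, 2659 and 2843 with BAQ12O against 1113, 1071 and 1102 with Lys05, and MT-CO3 had 7042, 7180.0 and 7187 against 2609.8, 2623 and 2827. MT-CO2 had 3289.9, 2780.1 and 2884 against 1350.2, 1222 and 1369, and at a log2 difference of 1.18 ± 0.19 (SE, adjusted p = 0.0059, limma) it was the smallest and least certain of the 12. It missed the threshold without Lys05 replicate 2 (adjusted p = 0.059, limma) or without BAQ12O replicate 1 (adjusted p = 0.058, limma), whereas the other 11 passed without any 1 of the 6 libraries. The ATP synthase mRNAs MT-ATP6 and MT-ATP8 differed by 1.66 and 1.58 on the log2 scale, and MT-ATP6 had 7769, 7373 and 9623 normalised reads with BAQ12O against 2482, 2636 and 2687 with Lys05. The end of MT-ATP8 overlaps MT-ATP6 and that of MT-ND4L overlaps MT-ND4 on the same strand, so that these pairs may not be separate measurements.

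Against vehicle, all 12 heavy-strand mRNAs were lower with either agent, with log2 differences of -0.99 to -0.44 (median -0.61) for BAQ12O and of -2.46 to -1.73 (median -2.23) for Lys05. In the 15-library fit, 9 of the 12 passed as lower with BAQ12O, where 0.543% of all genes did, and 12 of 12 with Lys05, where 0.162% of all genes did. The 3 that did not pass with BAQ12O were MT-CO2, MT-CYB and MT-ND5.

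**Figure D2:**
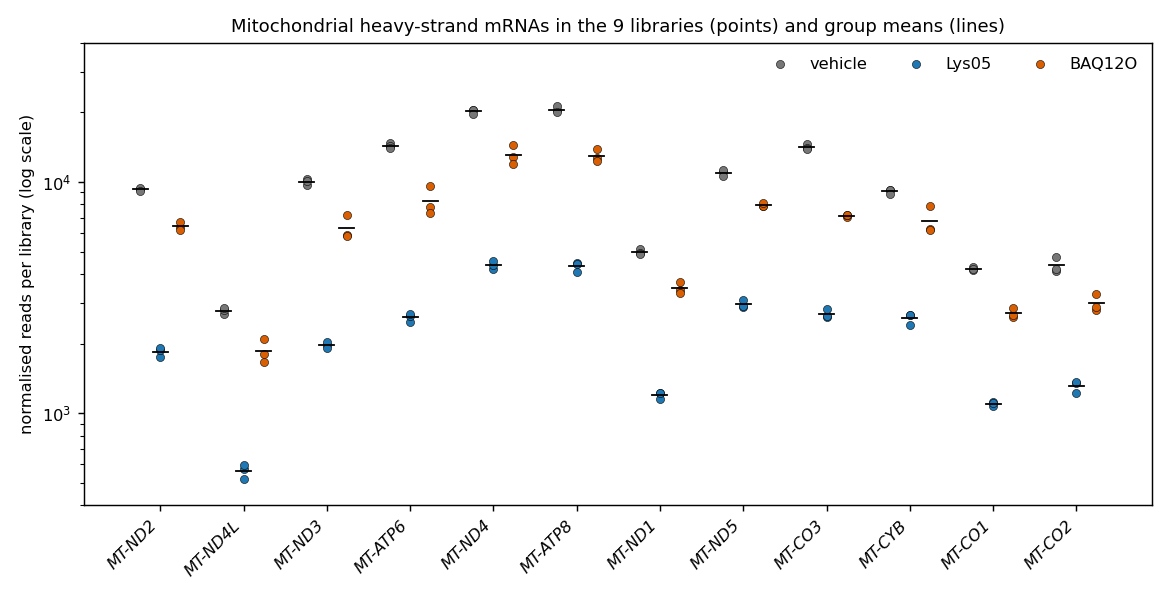
Normalised reads (log scale) of the 12 heavy-strand mRNAs in each vehicle, Lys05 and BAQ12O library, with a black line at the mean of each group of 3. In every gene the BAQ12O points lie between the vehicle points above them and the Lys05 points below them, and no groups overlap.

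The remaining RNAs of the mitochondrial genome differed in both directions: of 21 tested, 13 were higher and 8 lower with BAQ12O. The 2 rRNAs, which build the mitochondrial ribosome, had nearly the same normalised reads with both agents. MT-RNR1 had 95020.3, 94217 and 106709 normalised reads with BAQ12O and 106532, 107058 and 107878 with Lys05, a log2 difference of -0.12 with a 95% interval from -0.36 to 0.12. MT-RNR2 had 206181, 200342 and 225427 against 194413, 200515 and 200408, a log2 difference of 0.084 with a 95% interval from -0.12 to 0.29. Neither passed in the 15-library or the 9-library fit, and both intervals end far below the smallest difference among the mRNAs. The rRNAs took 14.02% to 15.2% of the reads with BAQ12O, 14.5% to 14.8% with Lys05 and 10.7% to 11.3% with vehicle. MT-ND6, the complex I mRNA of the opposite strand, had 841, 804 and 775 normalised reads with BAQ12O against 1037, 1106 and 1064 with Lys05 and 476 to 563 with vehicle. Its log2 difference of -0.41 ± 0.13 (SE) had an adjusted p of 0.38 in the 15-library fit and of 1.6e-05 in the 9-library fit (limma), and no BAQ12O library reached a Lys05 library.

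Of 22 tRNA genes, 4 (MT-TW, MT-TN, MT-TD and MT-TK) had at most 5 reads in any library and were not tested. The other 18 ran from -1.47 to 1.24 on the log2 scale. Of the 11 on the plus strand of the annotation, the strand that reads as the mRNAs, 9 were higher with BAQ12O, and of the 7 on the minus strand 3 were higher. In the 15-library fit 1 passed in each direction, MT-TI higher and MT-TC lower. In the 9-library fit 7 passed as higher and 3 as lower, among them MT-TS2 (278, 302 and 324 normalised reads with BAQ12O against 164, 149 and 175 with Lys05) and MT-TS1 (41.0, 31.5 and 46.9 against 63.9, 89.6 and 57.9). The sequences of the 2 that passed are shown because they moved in opposite directions and lie on opposite strands; they are taken from GENCODE release 29 (GRCh38), 5′ to 3′, with the anticodon in capitals.
MT-TI: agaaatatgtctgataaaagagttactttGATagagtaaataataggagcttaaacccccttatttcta
MT-TC: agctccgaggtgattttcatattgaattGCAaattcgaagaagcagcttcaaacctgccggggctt
MT-TI, the isoleucine tRNA, occupies chrM:4263-4331 on the plus strand, between MT-ND1 and MT-TQ. It had 142, 133 and 119 normalised reads with BAQ12O, 51.1, 63.5 and 50.4 with Lys05 and 104 to 129.5 with vehicle. The log2 difference was 1.24 ± 0.20 (SE, adjusted p = 0.0052, limma), and without BAQ12O replicate 1 its adjusted p was 0.051 (limma). MT-TC, the cysteine tRNA, occupies chrM:5761-5826 on the minus strand and shares its end with MT-TY. It had 164, 195 and 179 with BAQ12O, 562, 489 and 447 with Lys05 and 73.1 to 79.9 with vehicle. It was the gene with the largest drop among the 26, with a log2 difference of -1.47 ± 0.22 (SE, adjusted p = 0.0030, limma), and it passed without any 1 of the 6 libraries. Its neighbour MT-TY had 462, 504 and 452 against 448, 469 and 583, which overlapped. These values count reads inside each annotated interval, so that mature tRNAs and longer precursors cannot be told apart, and the strand setting of the counting is not given in the sources used here, so that reads of the opposite strand may be included.

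**Figure D3:**
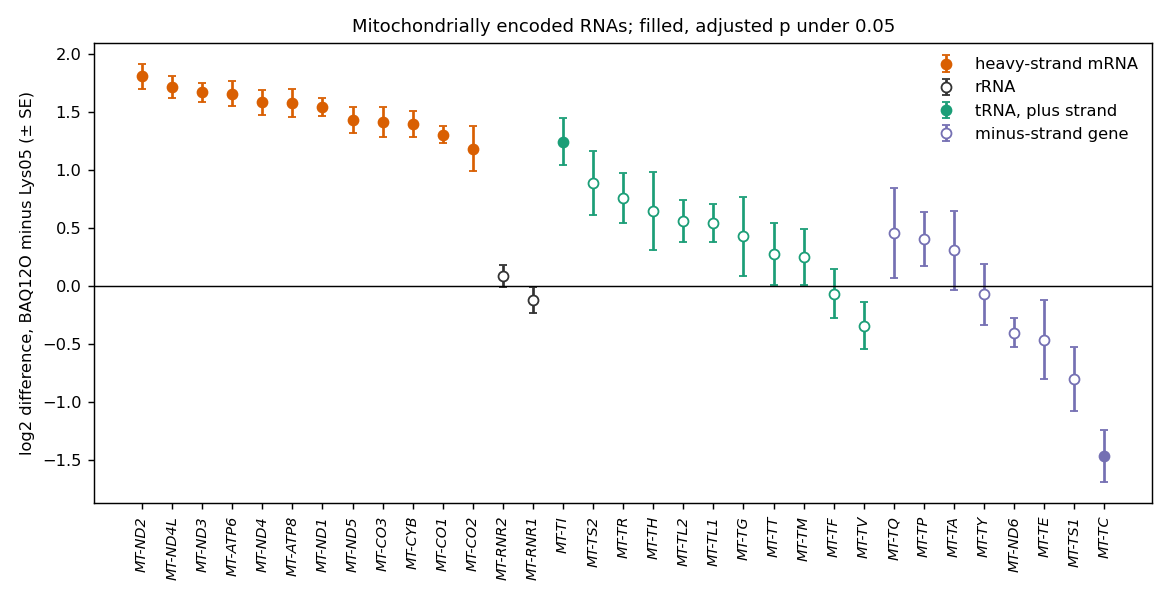
Log2 difference BAQ12O minus Lys05 with its standard error for the 33 mitochondrially encoded genes tested, grouped as heavy-strand mRNAs, rRNAs, plus-strand tRNAs and minus-strand genes. Filled symbols passed in the 15-library fit: the 12 mRNAs and MT-TI above 0, and MT-TC below 0 at -1.47. The rRNAs lie near 0.

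A nuclear fragment of the mitochondrial genome moved with the mRNAs. MTATP6P1, an unprocessed pseudogene on chr1:633696-634376, had 185, 167 and 199.9 normalised reads with BAQ12O, 62.8, 57.3 and 58.8 with Lys05 and 228 to 282 with vehicle, a log2 difference of 1.61 ± 0.12 (SE, adjusted p = 1.8e-07, limma). It is a near-identical copy of MT-ATP6, and reads of one can be assigned to the other. Nuclear genes that serve the mitochondrial genome or its products passed in 1 case, MRPL33. Of 44 nuclear subunits of the respiratory chain, 0 passed in the 15-library fit (limma), the median log2 difference was -0.027, and 1, SDHC at -0.38, passed as lower in the 9-library fit. COX7C, a complex IV subunit, had 1223 ± 63.6 normalised reads with BAQ12O and 1169 ± 25.8 with Lys05 (SD, n = 3), and the 95% interval of its log2 difference was -0.13 to 0.26. Of 21 genes for mitochondrial transcription and RNA handling, 0 passed in either fit, with a median of -0.10. Of these, 3 lay entirely below Lys05, where 9.19% of all genes did, and 0 entirely above. LRPPRC, which binds and stabilises mitochondrial mRNAs, had 433.8 ± 9.23 against 446 ± 19.3 normalised reads (SD, n = 3; interval -0.25 to 0.17 on the log2 scale). MRPL33, a protein of the large mitochondrial ribosomal subunit, was 1 of the 3 genes that were lower. It had 61.4, 63.9 and 60.7 with BAQ12O, 109.7, 93.7 and 94.3 with Lys05 and 79.7 to 90.4 with vehicle, a log2 difference of -0.67 ± 0.12 (SE, adjusted p = 0.015, limma). It passed without Lys05 replicate 2 or 3 (adjusted p = 0.049 for either, limma) but not without any of the other 4 libraries (0.055 to 0.16). The call of MRPL33 was also lost with DESeq2 on recovered reads and with a replicate block in the fit. Its annotated span overlaps RBKS and BABAM2.

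All 21 cholesterol synthesis enzymes tested were higher with BAQ12O than with Lys05, and 2 of them passed in the 15-library fit. The median log2 difference was 0.43, with a range of 0.038 to 1.02, and in 12 of the 21 every BAQ12O library lay above every Lys05 library, where 9.16% of all genes did. MSMO1, the C-4 methylsterol oxidase, had 139, 142 and 146 normalised reads with BAQ12O, 82.0, 73.9 and 56.0 with Lys05 and 69.7, 51.4 and 75.3 with vehicle. Its log2 difference was 1.02 ± 0.14 (SE, adjusted p = 0.0014, limma), and Lys05 and vehicle overlapped. EBP, the sterol isomerase of the same pathway, had 277, 318 and 328 with BAQ12O, 209, 231 and 217 with Lys05 and 186 to 198 with vehicle, a log2 difference of 0.49 ± 0.098 (SE, adjusted p = 0.046, limma). EBP passed without BAQ12O replicate 1 but not without any of the other 5 libraries (adjusted p = 0.092 to 0.28, limma).

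In the 9-library fit 7 of the 21 passed, all higher, where 1.26% of all genes passed as higher. HMGCS1, which makes the HMG-CoA of the pathway, had 102, 103 and 91.0 normalised reads with BAQ12O against 62.8, 64.6 and 70.9 with Lys05. FDPS, the farnesyl diphosphate synthase, had 476, 497 and 463 against 369, 326 and 373. SQLE, the squalene epoxidase, had 193, 207 and 212 against 154, 154 and 159.6. FDFT1 (squalene synthase) and LSS (lanosterol synthase) completed the 7, at 0.42 and 0.57 on the log2 scale. Against vehicle the median of the list was 0.54 with BAQ12O and 0.11 with Lys05. In the 15-library fit 7 of 21 passed as higher with BAQ12O (0.934% of all genes) and 0 with Lys05 (0.0762%). In the 9-library fit 12 passed as higher with BAQ12O (455 of all 10495 genes) and 1, FDPS, with Lys05 (44 of 10495). In BAQ13 libraries MSMO1 had 448 to 488 normalised reads and EBP had 594 to 692, above every BAQ12O library, values given side by side without a test.

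The sequence upstream of MSMO1 is shown because this gene had the largest difference of the list. It is the RefSeq promoter window up to the first annotated GENCODE base of the gene (GRCh38.p14, chr4:165327419-165327622, plus strand), with each CCAAT, the binding motif of the factor NF-Y, in capitals on either strand.
MSMO1: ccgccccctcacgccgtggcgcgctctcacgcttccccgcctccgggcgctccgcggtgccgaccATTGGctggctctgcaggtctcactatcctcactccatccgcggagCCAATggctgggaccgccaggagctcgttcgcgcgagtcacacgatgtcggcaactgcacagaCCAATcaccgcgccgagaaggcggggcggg
The letters CCAAT or their reverse complement ATTGG stood, within the stretch printed, 185, 139 and 76 bases before the RefSeq start. Of the 21 genes of the list, 16 had a promoter of 250 bases before to 50 bases after the start in the RefSeq table, and in 13 of the 16 at least 1 such window held the motif. Over all genes of that table, 39.7% had it. This is a description of letters in a window and says nothing of binding in these cells.

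Fatty acid synthesis moved less evenly. Of 18 genes of fatty acid synthesis and desaturation tested, 12 were higher and 6 lower, with a median of 0.092 on the log2 scale. FASN, the fatty acid synthase, passed in the 15-library fit: it had 926, 935 and 903 normalised reads with BAQ12O, 626, 624 and 684 with Lys05 and 495 to 506 with vehicle. The log2 difference was 0.52 ± 0.079 (SE, adjusted p = 0.0030, limma), the 3 groups did not overlap, and the gene passed without any 1 of the 6 libraries. ACSS2, which makes cytosolic acetyl-CoA from acetate, and SCD, the main fatty acid desaturase, were added by the 9-library fit. ACSS2 had 48.5, 43.9 and 49.6 with BAQ12O against 26.6, 18.7 and 26.1 with Lys05, and SCD had 2304, 2372 and 2590.5 against 2075, 2200.5 and 2042. ACLY, which supplies acetyl-CoA from citrate, had 369, 324 and 318 against 333, 309 and 316, which overlapped.

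Genes that sense sterols or take up lipoproteins did not move as a group. Of 12 tested, 8 were higher and 4 lower, the median was 0.095, and 0 passed in the 15-library fit (limma). INSIG1, which holds SREBP in the endoplasmic reticulum when sterol is plentiful, had 158, 182 and 174 against 145, 126 and 133. Of 7 liver X receptor targets, 0 passed in either fit.

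**Figure D4:**
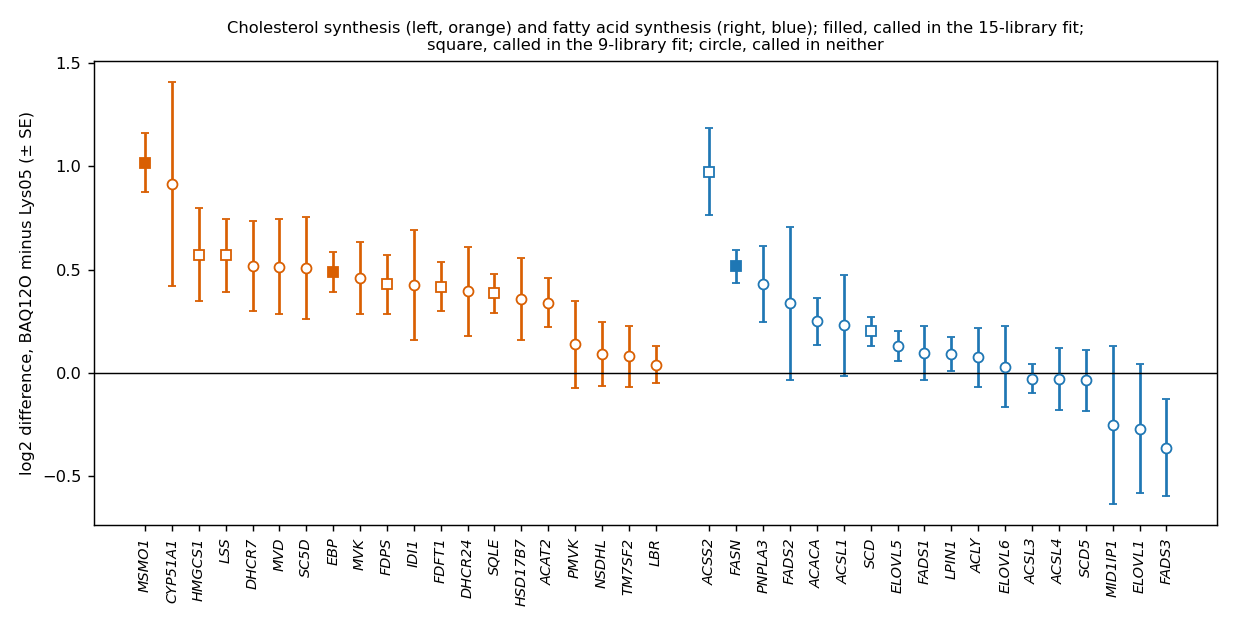
Log2 difference BAQ12O minus Lys05 with its standard error for 20 of the 21 cholesterol synthesis enzymes (orange) and 18 genes of fatty acid synthesis and desaturation (blue), each ordered by size. Filled symbols passed in the 15-library fit and squares in the 9-library fit. All 20 orange points lie above 0, led by MSMO1 at 1.02, whereas 6 of the 18 blue points lie below 0.

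Of 48 autophagy genes tested, 25 were higher and 23 lower, and SQSTM1 was the only 1 that passed in either fit. SQSTM1 encodes the receptor p62, which binds ubiquitinated cargo and is itself degraded by autophagy. It had 489, 543 and 474 normalised reads with BAQ12O, 333, 345 and 349 with Lys05 and 282, 309 and 312 with vehicle. The log2 difference was 0.55 ± 0.11 (SE, adjusted p = 0.048, limma), and no BAQ12O library overlapped a Lys05 library. The call was close to the threshold: it was lost without any 1 of the 6 libraries (adjusted p = 0.11 to 0.32, limma), whereas the 9-library fit gave 4.7e-07. With edgeR, run on recovered whole reads, the adjusted p was 0.053, and that of EBP was 0.056.

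No lysosomal gene list held a call in the 15-library fit, and 7 genes passed as higher in the 9-library fit, where 1.26% of all genes did. In the 15-library fit 0 passed (limma) among the 16 V-ATPase subunits, 20 ion channels and transporters, 15 proteases and cystatins, 31 glycosidases, lipases and activators, 18 membrane proteins and 20 genes of the TFEB family and mTORC1 control that were tested. Their median log2 differences were 0.035, 0.19, 0.11, 0.070, 0.064 and 0.14 in that order. In the 9-library fit 0 V-ATPase subunits and 0 membrane proteins passed. SLC17A5, the sialic acid exporter of lysosomes, passed there with 115, 137 and 131 normalised reads with BAQ12O against 93.7, 85.4 and 98.0 with Lys05. The carboxypeptidase gene CTSA (281, 288 and 292 against 187, 246 and 231), the peptidase gene TPP1 (175, 172 and 163 against 129.9, 135 and 127) and the ganglioside activator GM2A passed there as well. So did 3 genes of nutrient signalling at the lysosome: RRAGD (172, 180.2 and 199.9 against 138, 139 and 137), TSC1 and FNIP1. In each of these 7 genes the BAQ12O libraries lay above the Lys05 libraries, by 0.37 to 0.54 on the log2 scale.

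Other lysosomal genes named for their high levels did not pass in either fit. CTSC had 2504 ± 160 normalised reads with BAQ12O and 2672 ± 106 with Lys05 (SD, n = 3), and the saposin precursor PSAP had 954 ± 24.2 against 893 ± 0.61, with a 95% interval of its log2 difference from -0.048 to 0.24. ATP6V1G1, a subunit of the proton pump, had 412 ± 28.9 against 419.96 ± 32.2 (interval -0.24 to 0.18). Of 22 genes of the response to lysosomal damage 0 passed in either fit, and LGALS3, the galectin that marks ruptured lysosomes, had 612 ± 23.3 against 595 ± 21.6 (interval -0.11 to 0.19). Of 14 BCL2 family genes 0 passed in the 15-library fit. BMF was the 1 that passed in the 9-library fit, at a level of 11.9, 11.4 and 15.2 normalised reads against 6.39, 2.08 and 1.87, where the last 2 lie under the worth of 3 reads.

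Long non-coding RNAs made up 4 of the 26 genes. NEAT1, the scaffold of nuclear paraspeckles, had 2967, 2828 and 2630.5 normalised reads with BAQ12O, 1919.8, 1877 and 1930.4 with Lys05 and 1431 to 1597 with vehicle, a log2 difference of 0.56 ± 0.069 (SE, adjusted p = 2.3e-04, limma). MALAT1, an abundant RNA of nuclear speckles, had 27622, 27421 and 31784 against 21773, 23149 and 22265, a log2 difference of 0.37 ± 0.069 (SE, adjusted p = 0.024, limma). UCA1 had 417, 399 and 477 against 302, 284 and 271, a log2 difference of 0.59 ± 0.091 (SE, adjusted p = 0.0033, limma). CTD-2228K2.7 (now SLC9A3-AS1, on chr5:473236-480884), which lies antisense to SLC9A3, had the largest increase among those of the 26 genes that lie outside the mitochondrial genome and its copy. It had 94.9, 100.1 and 112 with BAQ12O, 41.5, 45.8 and 33.6 with Lys05 and 31.2 to 38.0 with vehicle, a log2 difference of 1.33 ± 0.15 (SE, adjusted p = 8.8e-05, limma). In all 4 the BAQ12O libraries were the highest of the 3 groups. MALAT1 passed without BAQ12O replicate 2 but not without any of the other 5 (adjusted p = 0.051 to 0.20, limma), and the other 3 passed without any 1 of the 6 libraries. In the 3 BAQ13 libraries UCA1 had 713 to 780.3 normalised reads, above every BAQ12O library, whereas NEAT1 had 2434 to 2697.

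The remaining 2 protein-coding genes of the 26 were NDRG4 and PHLDB2. NDRG4, a member of the N-myc downstream-regulated family, had 35.6, 46.7 and 46.9 normalised reads with BAQ12O, 18.1, 18.7 and 22.4 with Lys05 and 7.47, 10.05 and 13.8 with vehicle. Its log2 difference was 1.08 ± 0.21 (SE, adjusted p = 0.039, limma), and it passed without BAQ12O replicate 1 but not without any of the other 5 libraries (adjusted p = 0.071 to 0.24, limma). PHLDB2, a protein that anchors microtubules at the cell cortex, was lower: it had 215, 229.8 and 215 with BAQ12O, 351, 329 and 303 with Lys05 and 377 to 418 with vehicle. The log2 difference was -0.57 ± 0.095 (SE, adjusted p = 0.0069, limma). PHLDB2 passed without Lys05 replicate 3 or BAQ12O replicate 2, and the other 4 omissions gave adjusted p-values of 0.052 to 0.088 (limma). NDRG4, UCA1, NEAT1 and MALAT1 passed the test but lay outside the rule for naming genes, and were named after their values were seen.

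**Figure D5:**
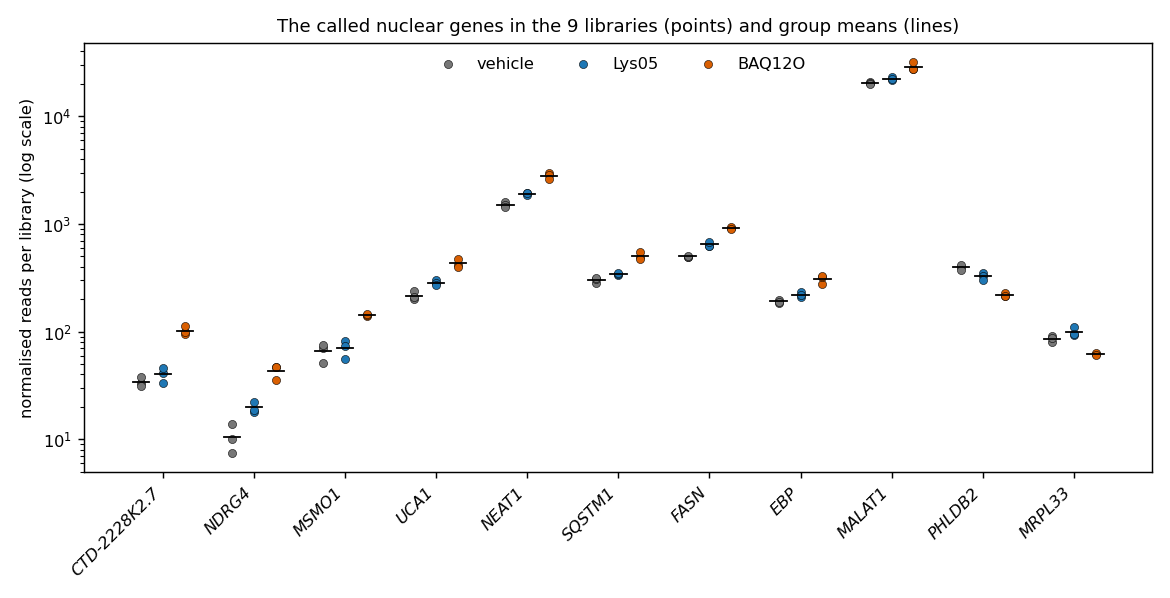
Normalised reads (log scale) of the 11 nuclear genes called in the 15-library fit, other than the mitochondrial copy, in each vehicle, Lys05 and BAQ12O library, with a black line at each group mean. In 9 genes the BAQ12O points lie above both other groups, and in PHLDB2 and MRPL33 below both.

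Several lists leaned lower with BAQ12O without a call in the 15-library fit. Of all 10495 genes tested, 5391 were lower, and 1.29% passed as lower in the 9-library fit. Of 42 genes of DNA replication and S phase, 33 were lower and 9 higher, the median was -0.17 on the log2 scale, and 12 lay entirely below Lys05 and 0 entirely above, where 9.19% and 9.16% of all genes did. MCM2, a subunit of the replicative helicase, was the 1 that passed in the 9-library fit (36.7, 31.5 and 24.8 normalised reads with BAQ12O against 55.4, 48.9 and 56.9 with Lys05). Of 73 cytosolic ribosomal proteins, 57 were lower, the median was -0.067, and 5 passed as lower in the 9-library fit: RPL10A, RPS7, RPS18, RPS2 and RPS21. RPL10A had 1262, 1069 and 993 against 1480.1, 1279.9 and 1489. Of 40 mitosis genes, 19 were higher and 21 lower, with a median of -0.0036, and 0 passed in either fit. TOP2A, the topoisomerase of dividing cells, had 5375 ± 127 against 5155 ± 148 (SD, n = 3).

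Of 32 targets of ATF4, the transcription factor of the integrated stress response, 23 were lower. In the 9-library fit 4 passed as lower, where 1.29% of all genes did, and 0 passed in the 15-library fit (limma). SLC7A5, the large neutral amino acid transporter, had 121, 144 and 113 normalised reads with BAQ12O against 185, 168 and 185 with Lys05 and 218 to 221 with vehicle. PSAT1 and MTHFD2, of serine and folate metabolism, and ASNS, the asparagine synthetase, were the other 3, at -0.45, -0.31 and -0.42 on the log2 scale. ATF4 itself had 1159 ± 106 against 1105 ± 70.0 (SD, n = 3), with a 95% interval of its log2 difference from -0.22 to 0.35. In the 9-library fit, 2 of 26 endoplasmic reticulum chaperones (PDIA6 and MANF) and 2 of 19 heat shock genes (HSPA8 and HSPD1) also passed as lower. Other abundant members did not pass in either fit: HSPA5 had 1961 ± 33.3 against 2095 ± 74.2, and HSP90AA1 had 20159 ± 1375 against 20174 ± 283 (SD, n = 3; interval -0.15 to 0.14).

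Genes of iron handling went both ways. TFRC, the transferrin receptor that imports iron, had 135, 128 and 99.3 normalised reads with BAQ12O, 169, 154 and 186 with Lys05 and 177 to 207 with vehicle, a log2 difference of -0.50 ± 0.12 (SE) with an adjusted p of 0.18 in the 15-library fit and of 0.0030 in the 9-library fit (limma). FTL, the light chain of the iron store ferritin, had 5800.5, 6301 and 6602 against 5412, 5419 and 5529, a log2 difference of 0.19 ± 0.14 (SE), and passed as higher in the 9-library fit. Of 11 metallothioneins and zinc transporters, MT1X and MT2A passed as higher there, MT2A with 5337, 5339 and 6256 against 4799, 4790.5 and 4759.7. Of 27 genes of defence against oxidative stress, 21 hypoxia targets and 9 phospholipase, acyltransferase and lipid droplet genes, 0 passed in either fit. Of 17 glycolysis enzymes, 20 p53-responsive and G1 control genes and 9 genes of NF-kappaB and cytokines, 0 passed in the 15-library fit and 1 of each in the 9-library fit: ENO2 and NFKB2 as higher, and CCND1 as lower.

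Over the 26 lists without a call in the 15-library fit, which held 584 genes tested, 43 genes had an unadjusted p under 0.05 (772 over all genes tested), edgeR and DESeq2 each called 0, and limma over 9 libraries called 31. Of the genes on no list, TMSB4X and NRP2 were chosen after their values were seen, to show what the 2 fits do. TMSB4X, an actin-binding peptide, had 738, 604 and 578 normalised reads with BAQ12O and 1251, 1149.7 and 832 with Lys05. Its adjusted p was 0.87 in the 15-library fit and 1.3e-08 in the 9-library fit (limma), and the BAQ12 libraries, which enter only the first, had 1545, 1105 and 77.9. NRP2, a co-receptor of semaphorins and VEGF, had 374, 402 and 349 against 231, 219.7 and 255, with an adjusted p of 0.20 and 3.7e-07 (limma), and the BAQ12 libraries had 192, 199.8 and 353. In both genes replicate 3 of BAQ12 was the library that stood apart.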

How the data were processed

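RNA was sequenced in 15 libraries, grouped by the agent in their labels. Per the labels, the authors used STAR, HTSeq and DESeq2 with GRCh38 (hg38); versions are not given in the sources used here. Sources differ on the kit: 3′-end in the labels, directional and paired-end in the study's methods. With a 3′-end kit, reads can depend on the 3′ end of an RNA as well as on its amount. Which of these the mitochondrial mRNAs, rRNAs and tRNAs reflect was not tested. The deposited values are a normalised signal, reads per gene after scaling by 1 factor in each library. Whole reads were recovered from 100% of them (tolerance 0.001 reads). Values were taken as log2(value + 1). Genes were filtered with filterByExpr of edgeR 4.0.16 (minimum 10 reads, 15 in total), fitted over all 15 libraries with limma 3.58.1 (R 4.3.3) and adjusted by Benjamini-Hochberg. Fold changes are on the log2(value + 1) scale, which understates those of low genes. The named genes are up to 15 with the largest change in each direction among those that passed, with a mean of at least 10 and groups that did not overlap, up to 6 of each list that passed, or otherwise 3 of the highest level. Of the list names, 17 were matched by identifier, and some listed genes are not reported here. Other list members, and genes that passed only over 9 libraries, were named after their values were seen. The comparison, the lists and their members were chosen with earlier results of these data known. The depth was 1586566 to 2230594 reads in the 6 libraries compared, and 3 reads were taken as the floor. Alternatives were edgeR and DESeq2 1.42.0 on recovered reads, other scalings, filters and pseudocounts, subsets of libraries and a replicate block. The fits were tested on simulated data.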

Additional observations from a re-analysis of the deposited data

How the results depend on the processing

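The count of genes past an adjusted p of 0.05 moved with the libraries that set the spread. It was 26 (23 higher and 3 lower) over 15 libraries, 223 (120 and 103) over the 6 compared, 267 (132 and 135) over 9, and, chosen after seeing the data, 83 (60 and 23) without BAQ12 replicate 3 and 261 (134 and 127) without BAQ12 replicate 3 and BAQ13 replicate 1. All 26 genes passed in each of these. Other tests, scalings, filters and pseudocounts gave 22 to 30, and edgeR 24. Leaving out 1 of the 6 libraries gave 20 to 23 genes, 19 to 20 higher and 1 to 3 lower. The 63 genes past 2-fold (50 higher and 13 lower) became 410 (252 and 158) without a filter on low values, 21 (20 and 1) with at least 10 reads in every library, 18 (17 and 1) with a pseudocount of 5, and 73 to 102 (56 to 79 higher and 17 to 37 lower) with 1 library left out. No difference of a named gene changed sign with a call. The replicate block gave 21 genes. Same-numbered libraries had deviations that correlated at -0.030 to -0.00165. Sampling noise in each gene weakens such a correlation, so that it cannot decide whether the numbers pair the libraries. Genes at a few reads cannot be resolved at 1586566 to 2230594 reads in the 6 libraries.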
